A study of Mus musculus with 22 samples.

Results

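Neurexins, neuroligins and the leucine-rich repeat transmembrane (Lrrtm) proteins join the 2 sides of a synapse, and 9 of their genes were followed here: Nrxn2, Nrxn3, Nlgn1, Nlgn2, Nlgn3, Lrrtm1, Lrrtm2, Lrrtm3 and Lrrtm4. They were chosen by name from the 23037 genes that could be matched to the deposited table. Together they took 0.172% of all counts, and Nlgn2 alone took 0.13%.

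Neurexins are presynaptic adhesion molecules whose long and short forms start at separate promoters and are spliced extensively. Neuroligins are their classical postsynaptic partners: neuroligin 1 is placed mainly at excitatory synapses, neuroligin 2 mainly at inhibitory synapses, and neuroligin 3 at both. Lrrtm proteins bind neurexins from the postsynaptic side of excitatory synapses and help to hold AMPA receptors there, and Lrrtm4 also binds heparan sulfate proteoglycans such as glypicans. Different neurons of the hippocampus, cortex and cerebellum are known to use different sets of these proteins.

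The study compared mice deficient for circTulp4, a circular RNA made by backsplicing of the Tulp4 transcript, with wild-type mice of the same C57BL/6 background. In the circTulp4-deficient (CD) mice the acceptor site of the backsplice was replaced in the genome with Cas9, so that the change is not limited to one cell type. The paper reports that circTulp4 was reduced but not abolished in CD brains, the remainder being made from a cryptic acceptor site. The data hold 22 libraries from 8 mice. Hippocampi came from 3 wild-type and 4 CD mice, cortices from 4 of each genotype, and cerebella from 4 wild-type and 3 CD mice. All were untreated dissected tissue, sequenced at the 3′ end of polyadenylated RNA by CelSeq2, and the sources used here do not state the age and sex of the mice. Levels are given as cpm, counts relative to the library total, after scaling of the libraries by the trimmed mean of M values (TMM).

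Library totals, with 1 transcript per gene, lay between 2760846 and 8858940 counts, so that 5 cpm stands for 13.8 to 44.3 counts. Granule cell and Purkinje cell markers followed the labelled regions. Gabra6 was 191 to 221 cpm in cerebella and at most 2.68 cpm elsewhere, Pcp2 was 2014 to 2420 cpm in cerebella and at most 26.1 cpm elsewhere, and Tbr1 was highest in cortices. CircTulp4 itself has no poly(A) tail and was not measured. Tulp4 mRNA ranged from 6.41 to 9.73 cpm in the 3 wild-type and from 3.81 to 6.54 cpm in the 4 CD hippocampi. Cortices had 7.92 to 16.3 cpm (wild-type) and 4.88 to 7.30 cpm (CD), without overlap, and cerebella 8.09 to 23.8 cpm and 9.37 to 11.7 cpm. By edgeR none of these differences passed (FDR = 0.981 to 0.9999). The log2 difference, CD minus wild-type, was -1.01 in cortices (95% interval, -1.55 to -0.48; unadjusted p = 0.00113, edgeR). It was -0.54 in hippocampi (-1.10 to 0.03) and -0.48 in cerebella (-1.12 to 0.17). Over the regions together it was -0.65 (-1.02 to -0.29; FDR = 0.9997, limma). Of all genes, 2.53% did not overlap in cortices. The paper reports that linear Tulp4 mRNA in the brain did not differ between genotypes. One library stood apart from its label. Counts on the Tulp4 transcript NM_054040.3 exceeded those on NM_001103181.1 by 16 (3.97 cpm of the library total, here without TMM scaling) in the CD hippocampus of mouse m118. On that unscaled measure the surplus was 0.423 to 0.573 in CD hippocampi of the other mice, and 2.71 to 3.69 in wild-type ones. In cortices it was 0.141 to 1.29 in CD and 1.45 to 6.02 in wild-type mice, and in cerebella 0.599 to 2.61 and 3.12 to 13.6. The cortex and cerebellum of mouse m118 had 0.896 and 1.55. Tulp4 mRNA in the CD hippocampus of mouse m118, also unscaled, was 6.46 cpm, against 5.98 cpm or less in the other CD hippocampi and 6.10 cpm or more in wild-type ones. The hippocampal genotype differences of Lrrtm3 and of the Lrrtm4 distal share are given with and without this library. All other results include it unless stated otherwise.

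In these tissues Lrrtm1, Lrrtm3 and Lrrtm4 had the largest differences between the hippocampus and each of the other regions among the 8 genes tested. Lrrtm1 and Lrrtm4 were highest in the hippocampus and lowest in the cerebellum, Lrrtm3 ran in the opposite order, and Lrrtm2 was at a similar level in hippocampus and cortex and higher in the cerebellum. Nlgn1 was lower in the cerebellum than in either forebrain region, Nrxn3 was higher there, and Nlgn2 stayed within a narrow range. No difference between CD and wild-type mice passed the test for any of these genes. The plot of all libraries shows these levels.

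**Figure D1:**
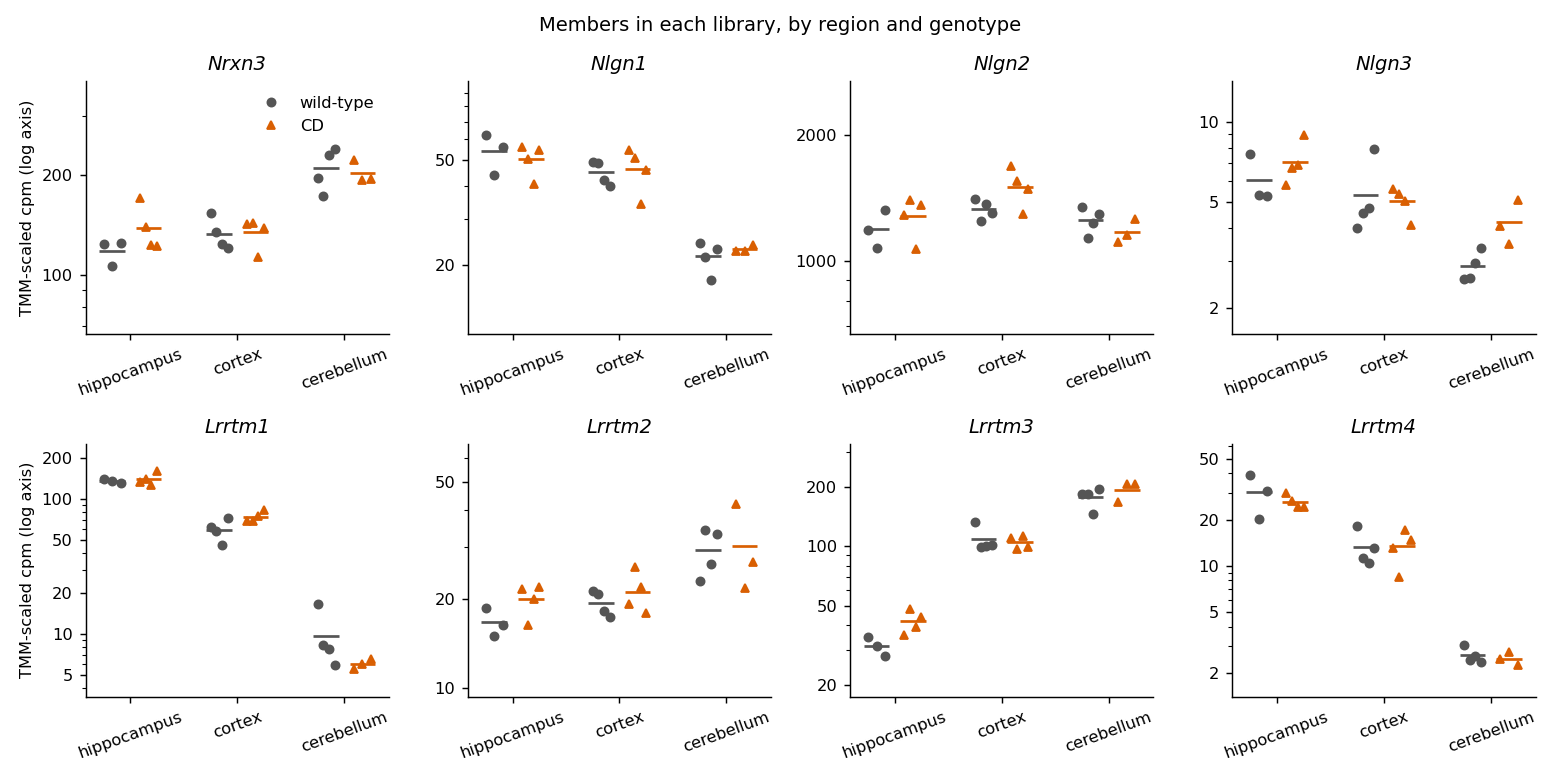
TMM-scaled cpm of 8 of the genes in each of 22 libraries, on log axes that differ between panels, with wild-type libraries as grey circles, CD libraries as orange triangles and group means as horizontal lines. Lrrtm1 falls from 127 to 161 cpm in hippocampi to 5.50 to 16.6 cpm in cerebella, while Lrrtm3 rises from 27.8 to 48.3 cpm to 146 to 207 cpm.

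The upstream sequences of the 3 Lrrtm genes with the steepest regional order are shown because Lrrtm1 and Lrrtm4 share an order and Lrrtm3 reverses it. Each is the 250 bases before a transcript start that the RefSeq table gives for the gene in GRCm38.p6, written 5′ to 3′ on the strand of the gene. Lrrtm4 has 2 such starts, of which the upstream one is used, and the window of Lrrtm1 lies inside the annotated span of the gene, before an internal start. Every CG dinucleotide, which reads the same on both strands, is in capitals.
Lrrtm1, chr6:77242227-77242476, plus strand: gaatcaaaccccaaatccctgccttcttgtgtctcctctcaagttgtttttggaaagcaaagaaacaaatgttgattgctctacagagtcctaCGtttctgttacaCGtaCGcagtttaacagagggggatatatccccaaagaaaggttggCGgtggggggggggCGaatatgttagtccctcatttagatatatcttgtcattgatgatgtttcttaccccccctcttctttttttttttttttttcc
Lrrtm4, chr6:80018627-80018876, plus strand: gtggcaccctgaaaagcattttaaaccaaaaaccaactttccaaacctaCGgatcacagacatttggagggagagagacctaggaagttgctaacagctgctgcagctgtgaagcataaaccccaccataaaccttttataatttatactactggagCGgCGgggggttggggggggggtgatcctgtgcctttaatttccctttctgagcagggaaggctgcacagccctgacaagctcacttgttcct
Lrrtm3, chr10:64090256-64090505, minus strand: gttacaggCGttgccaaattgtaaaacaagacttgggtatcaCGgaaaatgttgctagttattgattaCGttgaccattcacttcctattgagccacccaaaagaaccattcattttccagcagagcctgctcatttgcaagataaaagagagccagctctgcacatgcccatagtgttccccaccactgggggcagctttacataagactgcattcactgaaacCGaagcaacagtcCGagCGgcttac
The CG dinucleotide occurs 5 times upstream of Lrrtm1, 3 times upstream of Lrrtm4 and 6 times upstream of Lrrtm3. Of the 32851 upstream windows of this length in the RefSeq table, 49.6%, 37.8% and 53.7% hold no more than these numbers, so none of the 3 windows stands at an end of that distribution. These counts are descriptions of the letters in the windows, which lie side by side with the levels and were not tested against them.

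Lrrtm1, a postsynaptic neurexin ligand of excitatory synapses, had 127, 135 and 161 cpm as the lowest, median and highest value of 7 hippocampi. In 8 cortices these values were 45.5, 68.4 and 82.3 cpm, and in 7 cerebella 5.50, 6.57 and 16.6 cpm. The 3 regions did not overlap, and all 6 mice that gave the 3 regions showed the order hippocampus, cortex, cerebellum. Between cortex and hippocampus the difference was -1.07 on the log2 scale (standard error, 0.12; FDR = 1.25e-07 edgeR, quasi-likelihood, adjusted after Benjamini and Hochberg over 11137 genes), and between cerebellum and hippocampus it was -4.16 (standard error, 0.16; FDR = 1.86e-17). Lrrtm1 was thus 2.10-fold and 17.9-fold higher in the hippocampus, and 8.52-fold higher in the cortex than in the cerebellum. The highest cerebellum was the wild-type library of mouse m162, with 110 counts against 27 to 53 counts in the other 6.

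Lrrtm4, which binds glypicans as well as neurexins, had the same order at lower levels. The lowest, median and highest values were 20.3, 26.5 and 39.1 cpm in hippocampi, 8.49, 13.1 and 18.1 cpm in cortices, and 2.23, 2.44 and 3.02 cpm in cerebella. Again the regions did not overlap, and the order was the same in 6 of 6 mice. Cortices were lower than hippocampi by a log2 difference of -1.06 (standard error, 0.15; FDR = 2.62e-06), 2.09-fold, which is close to the threshold of 2-fold used for calls. Cerebella were lower than hippocampi by a log2 difference of -3.45 (standard error, 0.19; FDR = 3.05e-14), 10.9-fold, and 5.24-fold lower than cortices. In cerebella these levels rest on 12 to 20 counts a library. Without the wild-type hippocampus of mouse m162 the fold between hippocampus and cortex was 1.93, and without the CD cortex of mouse m138 it was 1.97, both at an FDR below 0.01 but no longer past the fold threshold.

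Lrrtm3 ran against both. Its lowest, median and highest values were 27.8, 35.7 and 48.3 cpm in hippocampi, 97.0, 101 and 134 cpm in cortices, and 146, 185 and 207 cpm in cerebella. No library of a region reached the range of another, and the order cerebellum, cortex, hippocampus held in 6 of 6 mice. The log2 difference was 1.56 between cortex and hippocampus (standard error, 0.09; FDR = 1.29e-12), 2.35 between cerebellum and hippocampus (standard error, 0.10; FDR = 1.13e-16) and 0.79 between cerebellum and cortex (standard error, 0.09; FDR = 1.93e-08). Lrrtm3 was therefore 2.95-fold and 5.10-fold higher in cortex and cerebellum than in hippocampus, and 1.73-fold higher in cerebellum than in cortex, which is under the fold threshold.

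Lrrtm2, the fourth gene of the family, was the least regional. Its values were 15.0, 18.7 and 22.02 cpm in hippocampi, 17.4, 20.04 and 25.6 cpm in cortices, and 21.8, 26.7 and 42.0 cpm in cerebella, and the ranges overlapped. Cerebella were 1.63-fold higher than hippocampi (log2 difference, 0.70; standard error, 0.13; FDR = 7.36e-05) and 1.45-fold higher than cortices (log2 difference, 0.54; standard error, 0.13; FDR = 0.000896). The difference between cortex and hippocampus did not pass the test (log2 difference, 0.16; 95% interval, -0.11 to 0.44; FDR = 0.368).

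Ratios of 2 genes within a library do not depend on how libraries are scaled. The log2 ratio of Lrrtm1 to Lrrtm2 had medians of 2.92 in hippocampi, 1.66 in cortices and -2.02 in cerebella. That of Lrrtm3 to Lrrtm2 had medians of 0.98, 2.47 and 2.55, and that of Lrrtm4 to Lrrtm2 of 0.46, -0.49 and -3.58. For Lrrtm1 and Lrrtm4 the libraries of the 3 regions did not overlap. For Lrrtm3 hippocampi, at 0.72 to 1.57, lay below all other libraries, whereas cortices and cerebella overlapped, because Lrrtm2 was higher in the cerebellum as well. These ratios compare libraries with each other. They do not rank the genes, since each gene is counted at its own 3′ end.

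**Figure D2:**
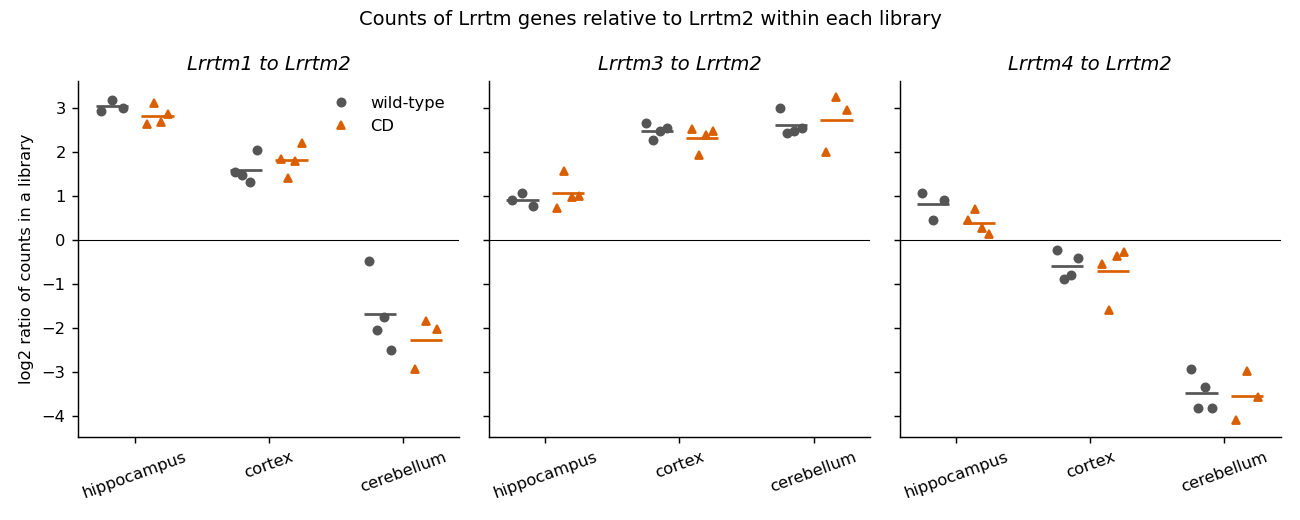
Log2 ratio of the counts of Lrrtm1, Lrrtm3 and Lrrtm4 to those of Lrrtm2 in each library, by region, with wild-type libraries as grey circles, CD libraries as orange triangles and group means as horizontal lines. The median of Lrrtm1 to Lrrtm2 goes from 2.92 in hippocampi to -2.02 in cerebella, and that of Lrrtm3 to Lrrtm2 from 0.98 to 2.55.

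Lrrtm1, Lrrtm2 and Lrrtm3 lie within the spans of the alpha-catenin genes Ctnna2, Ctnna1 and Ctnna3, on the opposite strand, and whether the authors' counting used strand is not stated in the sources used here. In GRCm38, Lrrtm1 is on chromosome 6 from 77229210 to 77259915 within Ctnna2, and Lrrtm3 is on chromosome 10 from 63928497 to 64090255 within Ctnna3. Ctnna3 had 88 counts in all 22 libraries against 14319 for Lrrtm3. Its mean was 0.320 cpm in hippocampi, 0.335 cpm in cortices and 1.36 cpm in cerebella, where Lrrtm3 was also highest. Ctnna2 had 24.3 ± 3.99 cpm (SD, n = 7) in hippocampi, 29.9 ± 5.80 cpm (SD, n = 8) in cortices and 11.7 ± 1.58 cpm (SD, n = 7) in cerebella. Unlike Lrrtm1, it was not higher in hippocampus than in cortex (cortex minus hippocampus, 0.31 on the log2 scale, FDR = 0.0656). Like Lrrtm1, it was lower in cerebellum than in hippocampus (log2 difference, -1.05, FDR = 4.83e-07) and cortex (-1.36, FDR = 4.12e-09). Whether reads of the host genes entered the Lrrtm counts was not tested. Ctnna1, the host of Lrrtm2, did not pass the test in any region comparison (FDR = 0.0495 to 0.425).

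Lrrtm4 reads fell at 2 ends of the gene, and between hippocampus and cortex the 2 ends did not change together. The main transcript (NM_001282102.1) ends at base 80025909 of chromosome 6 in the GENCODE annotation of GRCm38, and its last exon, from 80021614, holds the rest of the coding sequence. The other (NM_001134743.1) leaves that exon at base 80023160 and continues in an exon of its own from 80808968 to 80810143, which adds 219 coding bases. The 3′ ends of the 2 transcripts lie 784234 bases apart. The proximal end had 1958 counts over the 22 libraries and the distal end had 234.

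At the distal end the lowest, median and highest values were 0.831, 2.05 and 4.02 cpm in hippocampi, 1.58, 2.83 and 5.03 cpm in cortices, and 0, 0.169 and 0.453 cpm in cerebella. In contrast to the proximal end, the distal end was not lower in cortex than in hippocampus (cortex minus hippocampus, 0.69 on the log2 scale; 95% interval, 0.05 to 1.33; FDR = 0.0872). In the cerebellum it was lower than in the hippocampus by a log2 difference of -3.17 (standard error, 0.49; FDR = 4.21e-06), close to the -3.45 of the proximal end, but 8 counts in 7 libraries are all that stand behind that value. Distal counts made up 7.03 ± 2.81% (SD, n = 7) of the counts at both ends in hippocampi and 19.1 ± 7.81% (SD, n = 8) in cortices. The share was higher in the cortex in 7 of 7 mice that gave both regions, by 4.73 to 20.7 percentage points. The difference of 12.1 points had a two-sided exact permutation p of 0.00171 (adjusted p = 0.00684 over 4 comparisons of this share, n = 8 and 7), and an exact test within the 7 mice gave p = 0.0156, the smallest it can give. The share was singled out after its values had been seen.

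**Figure D3:**
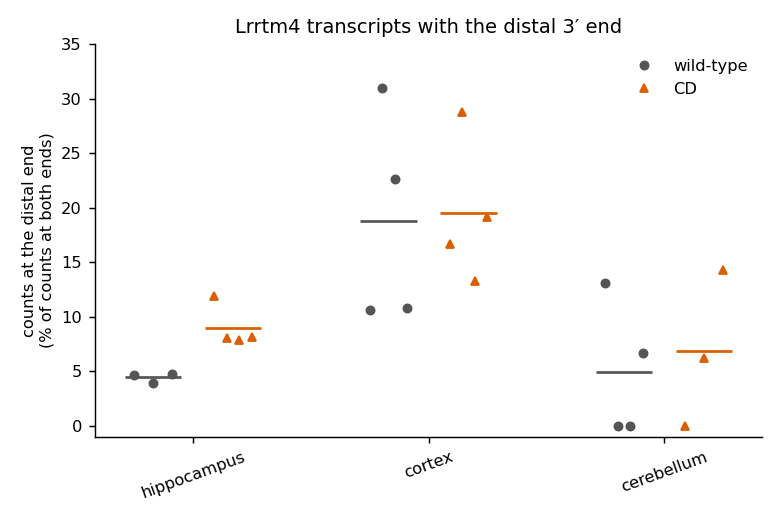
Share of Lrrtm4 counts at the distal 3′ end, as a percentage of the counts at both ends, in each library by region, with wild-type libraries as grey circles, CD libraries as orange triangles and group means as horizontal lines. Hippocampi lie between 3.93% and 11.9% and cortices between 10.6% and 31.0%, and cerebella, with 12 to 23 counts at both ends, are spread from 0% to 14.3%.

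Among the neuroligins, Nlgn1 fell in the cerebellum. Its lowest, median and highest values were 40.8, 54.5 and 62.4 cpm in hippocampi, 34.0, 47.3 and 54.7 cpm in cortices, and 17.5, 22.7 and 24.3 cpm in cerebella. All cerebella lay below all forebrain libraries, whereas hippocampi and cortices overlapped, although the hippocampus was above the cortex in 6 of the 7 mice that gave both. In the other, m138, the levels were 50.7 and 50.8 cpm. Cerebella were 2.33-fold lower than hippocampi (log2 difference, -1.22; standard error, 0.11; FDR = 8.68e-10) and 2.04-fold lower than cortices (log2 difference, -1.03; standard error, 0.11; FDR = 1.21e-08). Without the CD cortex of mouse m118 the latter was 1.99-fold, and without the wild-type cerebellum of mouse m240 it was 1.98-fold, so that it sits at the fold threshold. On the curated RefSeq transcripts of Nlgn1, which had 4569 counts against 5356 for the predicted transcript used here, cerebella were lower by log2 differences of -1.37 and -1.31.

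Nlgn2, the neuroligin of inhibitory synapses, had 1070 to 1397 cpm in hippocampi, 1247 to 1681 cpm in cortices and 1108 to 1344 cpm in cerebella. These ranges overlapped, and no comparison passed an FDR of 0.01. Cortex against cerebellum did pass it without the CD hippocampus or the CD cortex of mouse m190 or the wild-type cerebellum of mouse m162, at log2 differences of -0.22, -0.26 and -0.24. Its log2 difference was 0.19 between cortex and hippocampus (95% interval, 0.04 to 0.35; FDR = 0.0415), -0.03 between cerebellum and hippocampus (95% interval, -0.18 to 0.13; FDR = 0.776) and -0.22 between cerebellum and cortex (95% interval, -0.37 to -0.07; FDR = 0.0116). With 172468 counts in all, Nlgn2 was the most precisely counted gene of the group. Over the same libraries the log2 ratio of Nlgn1 to Nlgn2 had medians of -4.61 in hippocampi, -4.98 in cortices and -5.72 in cerebella, and the lowest cortex, at -5.25, lay above the highest cerebellum, at -5.61.

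Nlgn3 was counted at 15 to 63 counts a library. Its values were 5.29, 6.70 and 8.89 cpm in hippocampi, 3.998, 4.91 and 7.92 cpm in cortices, and 2.57, 3.37 and 5.09 cpm in cerebella. Cerebella lay below all hippocampi and were 1.87-fold lower (log2 difference, -0.90; standard error, 0.18; FDR = 0.000107). The cortex did not differ from the hippocampus (95% interval of the log2 difference, -0.73 to -0.03; FDR = 0.0849) or from the cerebellum (95% interval of cerebellum minus cortex, -0.90 to -0.15; FDR = 0.0139) at an FDR of 0.01. Without the wild-type cortex of mouse m162 the latter passed (log2 difference, -0.59).

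Nrxn3, a presynaptic neurexin, was higher in the cerebellum. Its lowest, median and highest values were 106, 124 and 170 cpm in hippocampi, 113, 137 and 153 cpm in cortices, and 173, 195 and 239 cpm in cerebella. Cerebella lay above all other libraries, in 6 of 6 mice, and forebrain regions overlapped. The cerebellum was 1.61-fold higher than the hippocampus (log2 difference, 0.69; standard error, 0.09; FDR = 6.21e-07) and 1.54-fold higher than the cortex (log2 difference, 0.62; standard error, 0.09; FDR = 1.49e-06), below the fold threshold. The transcript used here, with 20509 counts, is a predicted noncoding one. A coding transcript of the short form, which starts within the gene, had 14710 counts and log2 differences of 0.86 (cerebellum minus hippocampus) and 0.66 (cerebellum minus cortex). One of the long form had 14523 counts and 0.82 and 0.62. Both reach the same last exon, whose reads cannot be told apart by form, so these are not separate measurements of long and short neurexin 3.

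Nrxn2, the other neurexin followed, was all but absent from the counts. It had 6 counts in total, 1 each in 4 hippocampi and 2 cerebella and 0 in the other 16 libraries, on 3 transcripts with identical counts. At these depths 3 counts stand for 0.339 to 1.09 cpm. Nrxn2 did not pass the filter of 5 cpm in at least 2 libraries, and neither region nor genotype differences were detectable. Nrxn2 mRNA is known from brain, and whether its reads ended outside the counted transcripts was not tested here.

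Against all genes, the regional calls read as follows. A call required an FDR below 0.01 and a fold above 2. Between hippocampus and cortex, 1 of 8 genes tested, Lrrtm3, was called higher in cortex, against 4.38% of all genes, and 2, Lrrtm1 and Lrrtm4, were called higher in hippocampus, against 4.03%. At any fold the calls were the same 3 genes, against 13.5% and 12.4% of all genes. Between hippocampus and cerebellum, Lrrtm3 was called higher in cerebellum (all genes, 9.76%) and Nlgn1, Lrrtm1 and Lrrtm4 higher in hippocampus (all genes, 13.0%). At any fold 3 genes were higher in cerebellum (all genes, 24.7%) and 4 higher in hippocampus (all genes, 26.0%). Between cortex and cerebellum, no gene was called higher in cerebellum (all genes, 9.71%) and Nlgn1, Lrrtm1 and Lrrtm4 were called higher in cortex (all genes, 12.9%). At any fold 3 were higher in cerebellum (all genes, 25.7%) and 3 higher in cortex (all genes, 26.0%). Nrxn2 was not testable and is not among the 8. The plot of region differences shows them with their intervals. In bulk tissue, fewer cells of a type and less RNA per cell cannot be told apart.

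**Figure D4:**
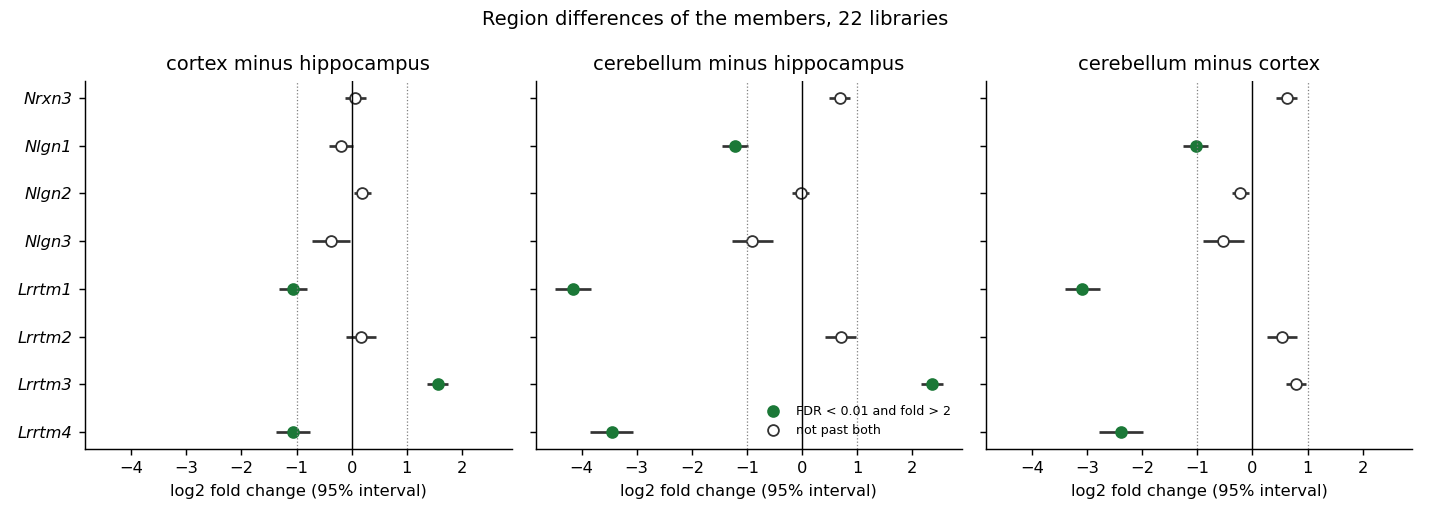
Log2 fold changes between regions with 95% intervals from the edgeR fit over 22 libraries, in 3 panels for cortex minus hippocampus, cerebellum minus hippocampus and cerebellum minus cortex. Filled points passed an FDR below 0.01 and a fold above 2, with dotted lines at that fold. Lrrtm1 and Lrrtm4 lie far to the left in the cerebellum panels (-4.16 and -3.45 against hippocampus), and Lrrtm3 lies to the right (2.35).

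Cell makeup differs between the regions, and its part in these differences was not tested. The 2 glutamatergic markers Slc17a7 and Slc17a6 summed to 430 to 732 cpm in hippocampi, 472 to 701 cpm in cortices and 154 to 259 cpm in cerebella. The 3 GABAergic markers summed to 210 to 297, 231 to 362 and 421 to 534 cpm, and the 4 markers of all neurons to 3167 to 3450, 4119 to 5167 and 3393 to 4266 cpm. These 4 did not move together. By mean level Syt1 was lowest in cerebella (475 cpm, against 1284.5 in hippocampi and 1583.5 in cortices). Rbfox3 was highest there (1191 cpm, against 799 and 1035), and Snap25 and Tubb3 were highest in cortices. Granule cell markers, 5 genes, summed to 1941 to 2875 cpm in cerebella and 42.3 cpm or less elsewhere. Oligodendrocyte markers, 4 genes, were highest in hippocampi (1830 to 3292 cpm), and choroid plexus markers, 3 genes, ranged from 124 to 8144 cpm among hippocampi. The sum of 4 astrocyte markers had its highest median in cerebella (617 to 1032 cpm) and overlapped with hippocampi (482 to 677 cpm). By mean level Slc1a3 and Aqp4 were highest in cerebella, Gja1 in hippocampi and Aldh1l1 in cortices.

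The genes with the most similar pattern over the 22 libraries, by Pearson's r of log2 cpm, followed the same regional orders. For Lrrtm1 they were Scn3b and Fam131a (r = 0.98 for both), for Lrrtm4 Atp2b1 and Cpne6 (r = 0.98 for both), and for Lrrtm3 Garnl3 (r = 0.98) and Plxdc1 (r = 0.97). For Nlgn1 they were Elfn2 and Hsph1 (r = 0.96 for both) and for Nrxn3 Slc38a1 and Ncapd2 (r = 0.94 for both). For the less regional genes the values were lower, with Sbno1 (r = 0.85) and Bzw1 (r = 0.84) for Nlgn2, Fkbp5 (r = 0.88) and Lcmt1 (r = 0.85) for Nlgn3, and Zfp874b (r = 0.83) and Nudt22 (r = 0.82) for Lrrtm2. The libraries share 3 regions and 8 mice, so these are descriptions.

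The partners of these proteins were taken from 7 lists with 83 genes in all, 73 of which were testable. Between hippocampus and cerebellum 9 were called higher in cerebellum (all genes, 9.76%) and 29 higher in hippocampus (all genes, 13.0%). Between cortex and cerebellum 6 were called higher in cerebellum (all genes, 9.71%) and 25 higher in cortex (all genes, 12.9%). Between hippocampus and cortex 7 were called higher in cortex (all genes, 4.38%) and 3 higher in hippocampus (all genes, 4.03%). The 9, 6 and 3 of 73 are near or below the shares of all genes. The lists were chosen with earlier results of these data known, so these shares are descriptions. Of 17 secreted and transmembrane neurexin ligands tested between hippocampus and cerebellum, 4 were called higher in cerebellum (all genes, 9.76%). In hippocampus 10 were called higher (all genes, 13.0%). The median log2 difference of these ligands, cerebellum minus hippocampus, was -1.52 against 0.02 over all genes.

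Within that list the region with the highest level differed from ligand to ligand. Cbln1, the cerebellin that links neurexins to delta-type glutamate receptors on Purkinje cells, had a median of 844 cpm in cerebella, 8.79 cpm in hippocampi and 8.69 cpm in cortices (cerebellum minus hippocampus, 6.59 on the log2 scale; FDR = 1.78e-17). Its relative Cbln2 was 7.66-fold higher in cortex than in hippocampus (medians, 24.8 and 3.81 cpm; FDR = 4.99e-13), and Cbln4 was 3.14-fold higher (medians, 10.02 and 3.23 cpm; FDR = 6.98e-05). In cerebella Cbln2 had 0 to 6 and Cbln4 0 to 5 counts a library. C1ql2, a secreted C1q-like protein that binds neurexin 3, had a median of 709 cpm in hippocampi, 15.8 cpm in cortices and 11.6 cpm in cerebella, 33.6-fold (FDR = 1.21e-13) and 64.7-fold (FDR = 8.69e-15) higher in hippocampus.

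Other ligands differed in other ways. Gpc4, a glypican and partner of Lrrtm4, was 4.33-fold higher in hippocampus than in cortex (medians, 29.8 and 6.33 cpm; FDR = 5.96e-10), in the region where Lrrtm4 itself was highest. Tafa1 and Tafa2, secreted neurexin ligands, had medians of 74.0 and 17.2 cpm in hippocampi, 56.4 and 13.8 cpm in cortices, and 1.28 and 0.366 cpm in cerebella. They were 54.0-fold (FDR = 1.79e-18) and 34.3-fold (FDR = 5.8e-15) lower in cerebellum than in hippocampus. The neurexophilin Nxph4 was higher in cerebella (median, 3.87 cpm, against 0.347 in hippocampi and 0.336 in cortices; FDR = 7.87e-08 against hippocampus).

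Of 3 inhibitors of neuroligin binding or neuroligin proteases tested, 1 was called higher in hippocampus than in cortex (all genes, 4.03%). Against cerebellum 2 were called higher in hippocampus (all genes, 13.0%). The first was Mdga1, which covers the neurexin site of neuroligins. It had a median of 1078 cpm in hippocampi, 286 cpm in cortices and 189 cpm in cerebella (4.05-fold higher in hippocampus than in cortex; FDR = 9.71e-11), in tissues where Nlgn2 differed little.

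Of 18 other postsynaptic organizers tested, 7 were called lower in cerebellum than in hippocampus (all genes, 13.0%) and 1 higher (all genes, 9.76%), and 3 were called higher in cortex than in hippocampus (all genes, 4.38%). Lrfn2, a leucine-rich organizer of excitatory synapses, had medians of 23.4 cpm in hippocampi, 25.5 cpm in cortices and 0.604 cpm in cerebella (36.8-fold lower than in hippocampus; FDR = 3.18e-19). Igsf9b, an adhesion protein of inhibitory synapses, was 4.21-fold higher in cortex (FDR = 1.62e-09) and 3.801-fold higher in cerebellum (FDR = 2.11e-09) than in hippocampus. Flrt1, a ligand of latrophilins, was 2.51-fold higher in cortex than in hippocampus (FDR = 4.36e-10).

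Among 15 other presynaptic organizers, 6 were called lower in cerebellum than in hippocampus (all genes, 13.0%) and 2 higher (all genes, 9.76%), with a median log2 difference of -0.88, and none was called between hippocampus and cortex. Tenm1, a teneurin, was 4.73-fold higher in cerebellum than in cortex (FDR = 2.11e-12). Of 7 intracellular partners of neurexins, 1 was called higher (all genes, 9.76%) and 2 lower (all genes, 13.0%) in cerebellum than in hippocampus. The higher one was Lin7a, a scaffold in a complex with Cask, at a median of 140 cpm in cerebella against 26.0 cpm in hippocampi (5.33-fold; FDR = 1.51e-17). No intracellular partner of neuroligins and Lrrtm proteins was called between hippocampus and the other regions (7 tested). Between cortex and cerebellum 1 was called, lower in cerebellum (all genes, 12.9%). Of 6 neurexin splicing regulators, 1 was called higher (all genes, 9.76%) and 2 lower (all genes, 13.0%) in cerebellum than in hippocampus. Between hippocampus and cortex 1 was called, higher in cortex (all genes, 4.38%).

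The comparison of CD with wild-type mice asked whether transcript levels in each region differed with the partial reduction of circTulp4. None of the genes tested passed with edgeR (8 in hippocampus, 8 in cortex and 6 in cerebellum, where Nlgn3 and Lrrtm4 did not pass the filter), and of all genes 0% passed in each region. The paper, at the same thresholds but with fewer libraries a group, reports dysregulated transcripts in hippocampus and cortex and none in cerebellum. DESeq2 called none of the members either, with 1 in each region at an unadjusted p below 0.05. By edgeR, at an unadjusted p below 0.05 there was 1 gene in the hippocampus (all genes, 4.22%), 1 in the cortex (all genes, 3.30%) and 0 in the cerebellum (all genes, 4.56%). Of the 83 partner genes, the 69, 72 and 66 that could be tested in hippocampus, cortex and cerebellum gave no call.

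The gene in the hippocampus was Lrrtm3. Wild-type hippocampi had 34.7, 31.2 and 27.8 cpm (mice m162, m240 and m244), and CD hippocampi had 35.7, 48.3, 39.3 and 44.0 cpm (mice m118, m138, m190 and m242). The genotypes did not overlap, but mice m118 and m162 lay within about 1 cpm of each other, and of all genes 5.43% did not overlap in the hippocampus. The difference was 0.43 on the log2 scale (95% interval, 0.13 to 0.73; FDR = 0.9975, edgeR). Without the CD hippocampus of mouse m118 it was 0.50 (FDR = 0.9984). In the cortex Lrrtm3 had 99.4 to 134 cpm in wild-type and 97.0 to 113 cpm in CD mice, and in the cerebellum 146 to 194 cpm and 167 to 207 cpm, with overlap in both regions.

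The gene in the cortex was Lrrtm1. Wild-type cortices had 61.8, 58.1, 45.5 and 72.1 cpm and CD cortices had 68.5, 68.2, 75.5 and 82.3 cpm, with overlap at 1 wild-type library (log2 difference, 0.31; 95% interval, 0.02 to 0.61; FDR = 0.9999, edgeR). No gene of the group was free of overlap in the cortex (all genes, 2.53%) or, among those tested, in the cerebellum (all genes, 5.34%). In cerebella Lrrtm1 had 16.6, 8.33, 7.76 and 5.90 cpm in wild-type and 5.50, 6.05 and 6.57 cpm in CD mice, a log2 difference of -0.67 (95% interval, -1.36 to 0.02; FDR = 0.981). That value turned on the wild-type cerebellum of mouse m162, without which it was -0.27 (95% interval, -0.81 to 0.27; FDR = 0.9993). Of the cortical markers Rorb, Tbr1, Lamp5 and Cux2, Rorb was higher in this library than in the other 6 cerebella (16.8 cpm, against 7.54 to 12.7 cpm), and the others lay within the range of those libraries. Their part in the Lrrtm1 value was not tested.

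For the remaining genes the intervals bound the difference. In the hippocampus the 95% interval of the CD to wild-type ratio was 0.892 to 1.29 for Nlgn2, 0.746 to 1.17 for Nlgn1, 0.959 to 1.43 for Nrxn3 and 0.646 to 1.17 for Lrrtm4. In the cortex it was 0.958 to 1.32 for Nlgn2, 0.815 to 1.28 for Nlgn1 and 0.842 to 1.19 for Nrxn3, and in the cerebellum 0.815 to 1.08 for Nlgn2. For Nlgn3 and Lrrtm2 in the hippocampus it was 0.821 to 1.69 and 0.942 to 1.52. Nlgn3 in the cerebellum was not tested. It had 2.57, 2.60, 2.95 and 3.37 cpm in wild-type and 4.07, 3.48 and 5.09 cpm in CD mice, from 15 to 41 counts, without overlap. Of the genes that passed the filter there, 5.34% did not overlap. The plot of genotype differences shows the intervals of the tested genes.

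**Figure D5:**
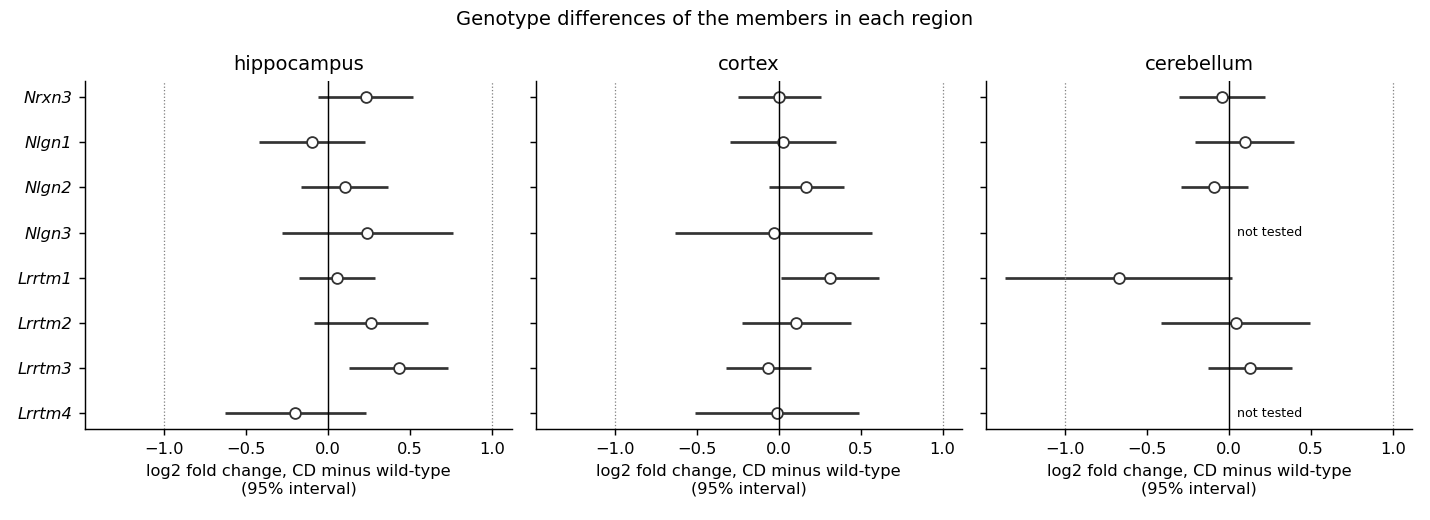
Log2 fold change of CD against wild-type with 95% intervals from the edgeR fit, in 3 panels for hippocampus, cortex and cerebellum, with dotted lines at a 2-fold difference. No gene passed an FDR of 0.01, and the intervals that leave out 0 are those of Lrrtm3 in hippocampus (0.13 to 0.73) and Lrrtm1 in cortex (0.02 to 0.61).

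Over the 3 regions together, with the mouse as a random block in limma, no gene passed (all genes, 0%). At an unadjusted p below 0.05 there were 2 of 8 genes (all genes, 3.58%), Nlgn3 with a log2 difference of 0.30 (95% interval, 0.00 to 0.60; FDR = 0.9997) and Lrrtm3 with 0.17 (95% interval, 0.01 to 0.33; FDR = 0.9997). The genotype difference was also tested for being unequal between regions. No gene passed an FDR of 0.05 (all genes, 0%). Lrrtm1 and Lrrtm3 were below 0.05 before adjustment, as were 3.91% of all genes (FDR = 0.9990 for both, edgeR).

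The distal share of Lrrtm4 was also compared by genotype. In the hippocampus it was 4.64%, 3.93% and 4.74% in wild-type and 11.9%, 8.03%, 7.82% and 8.11% in CD mice, from 7 to 20 distal counts a library. The genotypes did not overlap, the difference was 4.54 points, and the two-sided exact permutation p was 0.0286 (n = 4 and 3), the smallest it can give, and 0.0571 after adjustment over the 4 comparisons of this share. Without the CD hippocampus of mouse m118 the difference was 3.55 points. In the cortex the shares were 18.7 ± 9.90% (SD, n = 4) for wild-type mice and 19.5 ± 6.64% (SD, n = 4) for CD mice (exact permutation p = 0.886), and in the cerebellum they rested on 0 to 3 distal counts.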

How the data were processed

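Per the labels and methods, RNA of dissected regions was made into CelSeq2 3′ libraries, and the authors used STAR (mm10) for alignment and the End Sequence Analysis Toolkit for counting. They deposited raw counts per RefSeq transcript, without normalization. Tool versions, use of strand and collapse of reads with the same molecular identifier are not given in the sources used here. Printed intervals come from the edgeR and limma fits and include the spread between libraries. Group, region and mouse came from the sample labels, in which the libraries of a mouse share its number.

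Of 85964 transcripts, 69288 (80.6%, with 81.4% of the counts) matched a gene of the RefSeq annotation of GRCm38.p6 by accession without version, and the transcript with the most counts stood for its gene. The members and lists were chosen with earlier results of these data known. Genes reaching 5 cpm in 2 or more libraries (over all 22 for regions, within the region for genotype) were scaled by TMM and tested by quasi-likelihood (glmQLFit, glmQLFTest) in edgeR 4.0.16 under R 4.3.3, with 6 group means for regions. Calls needed a Benjamini-Hochberg FDR under 0.01 with a fold above 2 or below 0.5. The pooled genotype test used limma 3.58.1 (voom). Alternatives were DESeq2 1.42.0, other scaling and filters, summed transcripts, 1 genotype only, the mouse as a block and each library left out. The scripts were tested on simulated data. Named by rule were the 9 members, the 4 listed partners with the largest called difference in each direction and region comparison, the host genes, Tulp4 and the 2 genes most like each member. Expression was counted per library: totals were 2760846 to 8858940, and pairs of libraries of a group had a chi-square of 5.7 to 19.5 times its degrees of freedom, so none repeats another. Deviations of same-mouse libraries from their group means had mean correlations of 0.0962 (hippocampus and cortex), 0.0551 (hippocampus and cerebellum) and -0.0131 (cortex and cerebellum). The ratio of Nrxn3 to Nrxn2 was not computed because Nrxn2 had 0 counts in 16 libraries.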

Additional observations from a re-analysis of the deposited data

Results flagged for a closer look

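In a scan of 8 genes over the groups of 4 libraries, 32 sets in all, a value was far from the other 3 libraries of its group in 2 sets, where chance gives about 1.6. Nrxn3 in the CD cortex of mouse m190 was 112.8 cpm, below 138.6 to 143.3 cpm in the other CD cortices. Lrrtm3 in the wild-type cortex of mouse m162 was 133.6 cpm, above 99.4 to 101.8 cpm in the other wild-type cortices.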

How the results depend on the processing

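The mouse as a replicate block left the calls at 3 genes between hippocampus and cortex, 4 between hippocampus and cerebellum and 3 between cortex and cerebellum, and it changed no other call. In the pooled genotype comparison the fit with no replicate block also gave 0. With CD libraries alone, 1 gene (Lrrtm3) was past the thresholds between hippocampus and cortex, since Lrrtm1 fell to a log2 difference of -0.93 and Lrrtm4 to -0.97, and with distinct transcripts summed Lrrtm4 was at -0.83, all 3 with an FDR below 0.01. Between cortex and cerebellum Nlgn1 was at -0.99 with CD libraries alone. With wild-type libraries alone Nlgn3 passed between hippocampus and cerebellum (-1.08). The cause was not tested. At an FDR below 0.01 alone, Nlgn2 passed between cortex and cerebellum with DESeq2 and with its size factors in edgeR (-0.23 in both). With CD libraries alone Nlgn3 (-0.73) and Lrrtm2 (0.60) were lost between hippocampus and cerebellum, and Lrrtm2 (0.51) between cortex and cerebellum. Leaving out libraries one at a time gave 2 to 3 calls between hippocampus and cortex, 4 between hippocampus and cerebellum, 2 to 3 between cortex and cerebellum, and 0 between genotypes.

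Signs turned only for differences that passed no test. Nrxn3 between hippocampus and cortex was -0.045 with CD libraries alone. Nlgn2 between hippocampus and cerebellum was 0.012 with the mouse as a replicate block, 0.064 with wild-type libraries alone and -0.066 to 0.013 with libraries left out. Of the genotype differences in the hippocampus, Nlgn1 was 0.024 with summed transcripts and -0.23 to 0.017 with libraries left out, Lrrtm1 -0.017 to 0.10 and Lrrtm4 -0.43 to 0.035. In the cortex Nrxn3 ranged from -0.038 to 0.080, Nlgn1 from -0.057 to 0.15, Nlgn3 from -0.16 to 0.17, Lrrtm3 from -0.10 to 0.055 and Lrrtm4 from -0.14 to 0.21, and Lrrtm4 was 0.0065 without a filter. In the cerebellum Nrxn3 was 0.013 with summed transcripts and -0.12 to 0.028 with libraries left out, and Lrrtm2 -0.26 to 0.22. Over the regions Nlgn1 ranged from -0.090 to 0.087, Lrrtm1 from -0.125 to 0.072 and Lrrtm4 from -0.23 to 0.078 with mice left out. Without the CD hippocampus of mouse m118, Nlgn1 was -0.0041, and without the wild-type cerebellum of mouse m162, Lrrtm1 was 0.048; these 2 settings were chosen after seeing the data. The genotype difference of the Lrrtm4 distal share ranged from -2.37 to 4.80 points in the cortex and -1.80 to 5.34 points in the cerebellum, and in the hippocampus from 3.55 to 4.92 points, where the 6 libraries left cannot reach an exact permutation p below 0.05.

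Depth limits Nrxn2, Nlgn3, Lrrtm4 in the cerebellum and the distal end of Lrrtm4, each of which rests on few counts a library.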
